A study of Mus musculus with 12 samples.

Results

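The comparison described here is the effect of a high fat diet on the villus cells of mouse jejunum that are not enteroendocrine cells (non-EEC). Its members are 6 of the 12 libraries of the series, those whose labels give the cell type as non-EEC, with 3 libraries from mice on a normal diet (ND, Safe D04) and 3 from mice on a high fat diet (HFD, D12492). Every mouse, in these and in all other groups, was a male C57BL/6N mouse of 12 weeks with the genotype Neurog3eYFP/+, in which eYFP marks cells that express Neurog3, the transcription factor that specifies enteroendocrine cells. HFD mice changed diet at 8 weeks of age and ate it for 4 weeks, and ND mice stayed on the normal diet throughout. Villi were enriched with EDTA and dissociated with dispase, and the eYFP-negative cells were collected by flow cytometry. That sort removes cells with the reporter and selects for nothing else, so lymphocytes, goblet cells and other villus cells remain beside the enterocytes. The other 6 libraries hold the eYFP-positive cells (EEC) on the same diets and are used only for comparison. The growth protocol gives 3 mice per diet, and the 3 libraries of a group are taken as separate mice.

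Jejunal enterocytes take up fatty acids and monoglycerides from the lumen, bind them to fatty acid binding proteins, rebuild triglyceride at the endoplasmic reticulum and export it in chylomicrons built on apolipoprotein B, while a share is stored in droplets or oxidised in mitochondria and peroxisomes. Fatty acids are ligands of PPAR alpha, a nuclear receptor that pairs with RXR and switches on genes of fatty acid oxidation. Between the enterocytes lie intraepithelial lymphocytes, mostly cytotoxic T cells that carry the integrin chain Itgae and granzymes.

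The 6 libraries held between 10463504 and 17685977 counts. An enterocyte score was taken as the mean log2 CPM (counts scaled to a common library size) of 49 general enterocyte markers (brush border structure, hydrolases and transporters), and a T cell score as the same mean over 20 T cell genes. The enterocyte score was 7.79, 5.57 and 5.01 in ND replicates 1, 2 and 3 and 7.97, 9.46 and 8.88 in HFD replicates 1, 2 and 3. ND replicates 2 and 3 stand apart: both lie below all 6 EEC libraries, the lowest of which had 6.52, while ND replicate 1 is close to HFD replicate 1. The T cell score was 6.77, 7.74 and 8.42 under ND and 3.22, 1.09 and 3.77 under HFD, so the diets did not overlap in it. Group means differed by 2.65 in the enterocyte score and by -4.95 in the T cell score (HFD minus ND), whereas HFD replicate 1 and ND replicate 1 differed by 0.18 and -3.55. The first principal component of the 500 most variable genes held 92.4% of their variance and separated the diets. In these bulk libraries, fewer cells of a type and less RNA per cell cannot be told apart, and neither can diet and cell mixture. Results are therefore given on the usual scale, relative to the enterocyte markers, and without ND replicates 2 and 3.

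**Figure D1:**
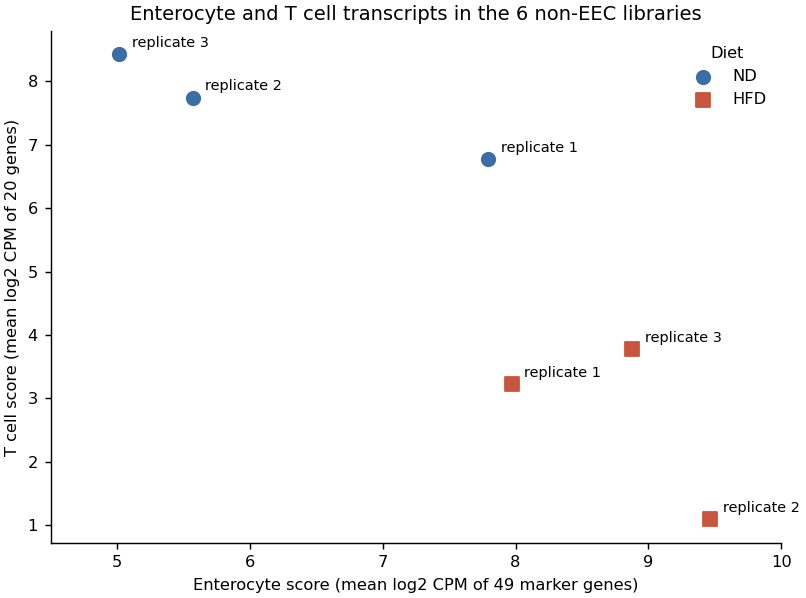
Enterocyte score (x axis, mean log2 CPM of 49 marker genes) against T cell score (y axis, mean log2 CPM of 20 genes), 1 point for each non-EEC library, circles for ND and squares for HFD. HFD libraries have T cell scores of 1.09 to 3.77 and ND libraries 6.77 to 8.42, and the replicate 1 libraries of both diets lie close together on the enterocyte axis at 7.79 and 7.97.

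Under HFD, 985 of 17087 tested genes were higher (5.76%) and 1564 were lower (9.15%) than under ND at an adjusted p below 0.05, by edgeR's quasi-likelihood test with Benjamini-Hochberg adjustment, which is the test behind every adjusted p below. "Rose" and "fell" below refer to these calls. In all, 2549 genes (14.9%) were called, and the median log2 fold change over all tested genes was -0.10. The genes with the largest rise included Cyp4a10, a fatty acid omega-hydroxylase, Apoc2, the cofactor of lipoprotein lipase, and Cd36, a fatty acid receptor, and those with the largest fall included the T cell genes Cd2, Batf and Cd4. When the libraries were instead scaled so that the enterocyte markers were level (6 non-EEC libraries, 14966 genes), the median over all genes moved to -2.96. On that scale 5 genes were higher (0.0334%) and 10089 lower (67.4%), and higher genes made up 0.0495% of the called genes in place of 38.6%. Without ND replicates 2 and 3, 7 of 19375 genes were higher (0.0361%) and 104 lower (0.537%), with the single remaining ND library assumed to vary like the other groups. The higher count ranged from 198 without ND replicate 2 to 1968 without ND replicate 1, and was 263 without ND replicate 3, 250 without HFD replicate 2 and 356 without HFD replicate 3. The lower count was 821, 757, 752 and 897 without ND replicates 2 and 3 and HFD replicates 2 and 3.

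**Figure D2:**
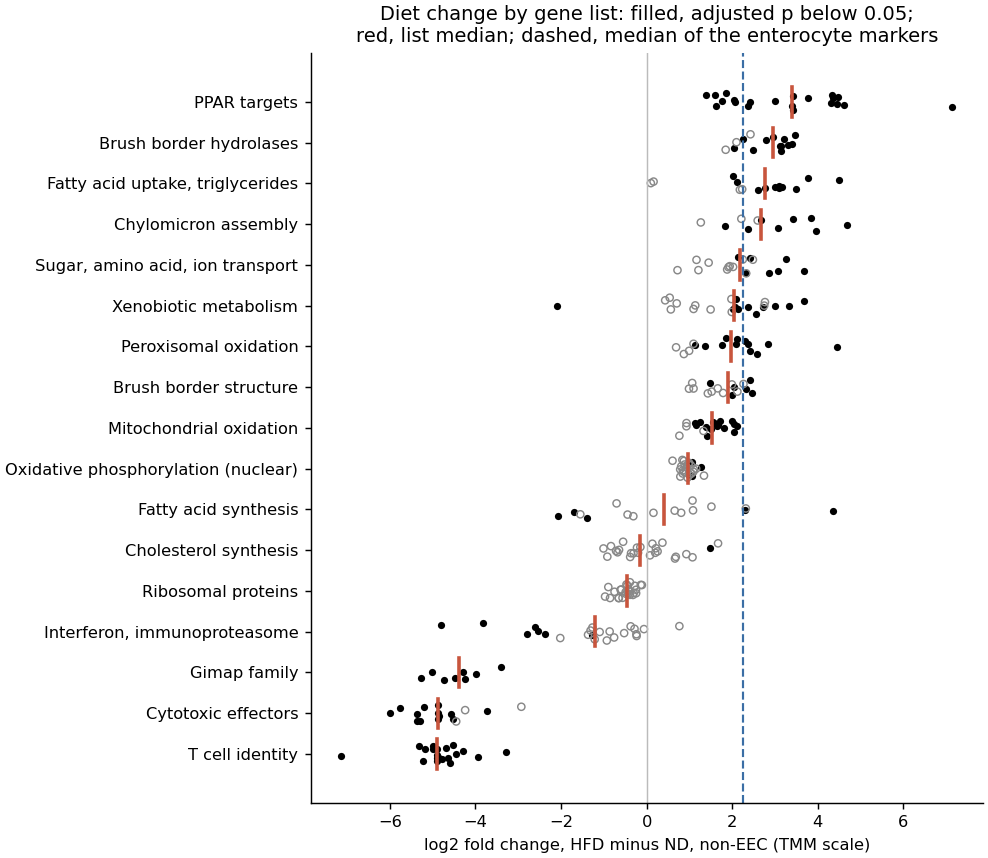
Diet change (x axis, log2 fold change, HFD minus ND, non-EEC) of each tested member of 17 gene lists (y axis), filled where the adjusted p was below 0.05, with the list median as a red bar and the median of the general enterocyte markers (2.25) as a dashed line. PPAR targets have the highest median of the 17 (3.41) and T cell identity genes the lowest (-4.89); relative to the enterocyte markers the medians of mitochondrial and peroxisomal oxidation, oxidative phosphorylation, xenobiotic metabolism, transport, brush border structure and fatty acid synthesis turn negative.

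General enterocyte genes were higher as a body under HFD. Of the 49 tested markers, 25 rose and none fell, with a median of 2.25 and a range from 0.72 to 3.67, beside the median of -0.10 over all genes. Hydrolases of the brush border, which finish the digestion of sugars and peptides, had 12 of 15 members higher and a median of 2.96. Transporters of sugars, amino acids and ions had 7 of 18 higher and a median of 2.19, and structural proteins of the microvilli 6 of 16 and a median of 1.89. Relative to the whole marker set, the medians were 0.71, -0.04 and -0.47.

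Alpi, intestinal alkaline phosphatase, was at 484, 68.1 and 32.6 CPM in ND replicates 1 to 3 and at 807, 2944 and 1444 CPM in HFD replicates 1 to 3. The diets did not overlap, although ND replicate 1 was closer to HFD replicate 1 than to the other ND libraries, and the log2 fold change was 3.15 ± 0.97 (SE, adjusted p = 0.0444). Sis, sucrase-isomaltase, was at 3521, 706 and 373 CPM under ND and 4685, 10230 and 7058 CPM under HFD (2.26 ± 0.71, adjusted p = 0.0495). Vil1, the actin bundler villin, was at 1604, 247 and 276 CPM under ND and 1544, 3083 and 2106 CPM under HFD and did not pass (1.66 ± 0.68, adjusted p = 0.114). Here HFD replicate 1 lay below ND replicate 1. The count of 25 enterocyte calls changed when single libraries were left out. It became 0 without ND replicate 2 or HFD replicate 2, 2 without ND replicate 3 and 3 without HFD replicate 3. Without ND replicate 1 it became 46. The marker median ranged over 1.79 to 3.58 in the fits with single libraries left out. Without ND replicates 2 and 3 the median of the markers was 1.10 and none was called.

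Genes of fat absorption were higher under HFD, several of them above the enterocyte median. In the list of fatty acid uptake and triglyceride synthesis, 11 of 15 genes rose and none fell, with a median of 2.77 (0.52 relative to the enterocyte markers). Cd36 was at 14.2, 5.80 and 3.04 CPM under ND and 74.3, 261 and 183 CPM under HFD. All 3 HFD libraries exceeded all ND libraries, and the log2 fold change was 4.49 ± 0.78 (adjusted p = 0.00396). Fabp1, the liver-type fatty acid binding protein that enterocytes hold in large amounts, was at 1549, 246 and 588 CPM under ND and 7772, 9513 and 15370 CPM under HFD (3.78 ± 0.73, adjusted p = 0.00615). The acyl-CoA synthetases that activate fatty acids rose too, Acsl3 by 3.17 ± 0.42 (adjusted p = 0.00188) and Acsl5 by 3.10 ± 0.61 (adjusted p = 0.0065). Slc27a2, a fatty acid transport protein, rose by 3.00 ± 0.51 (adjusted p = 0.00364). For the last step of triglyceride synthesis, Dgat2 rose by 3.09 ± 0.74 (adjusted p = 0.0166) and Dgat1 by 2.11 ± 0.62 (adjusted p = 0.0376). Mogat2, which acylates monoglyceride, had a change of 2.23 ± 0.80 and did not pass (adjusted p = 0.0768). Of the 15, 6 were called in each of the fits that left out 1 non-EEC library, Dgat2 and Dgat1 not among them.

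Chylomicron genes had 8 of 11 members higher, none lower and a median of 2.67 (0.43 relative to the enterocyte markers). Apoc2 was at 181, 24.8 and 50.7 CPM under ND and 464, 2654 and 3464 CPM under HFD. The diets did not overlap, with HFD replicate 1 nearest to ND, and the log2 fold change was 4.68 ± 0.90 (adjusted p = 0.00613). Apob, the structural protein of the chylomicron, was at 2019, 543 and 229 CPM under ND and 6851, 21170 and 12280 CPM under HFD (3.85 ± 0.83, adjusted p = 0.0101). Apoa4, a chylomicron protein, was at 801, 85.5 and 60.1 CPM under ND and at 1264, 8806 and 4634 CPM under HFD (3.96 ± 1.06, adjusted p = 0.0265). Apoc2 and Apob were the 2 members called in every fit that left out 1 library, and the list's count was 2 without ND replicate 2 or 3, 3 without HFD replicate 2 or 3 and 11 without ND replicate 1. Among 11 genes of lipid droplets and lipases (median 1.996, and -0.65 relative to the enterocyte markers), 4 rose, the droplet coats Plin2 and Plin3, Cidec, which enlarges droplets, and Abhd5, a lipase cofactor, with none called when ND replicate 2 or 3 or HFD replicate 2 or 3 was left out.

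Promoters of 3 of the genes above were read from RefSeq (GRCm38.p6, 250 bases before the start to 50 after it), because they rose together and hold a match to the repeat bound by PPAR and RXR. Both strands were searched for AGGTCA followed, after 1 base of any kind, by a second AGGTCA, with up to 2 mismatches, and the match is in capitals. HNF4A, a factor of enterocyte identity, binds the same repeat. Fabp1 lies at chr6:71199629-71199928 on the plus strand, Cd36 at chr5:17835847-17836146 and Apoc2 at chr7:19677892-19678191, both on the minus strand.
Fabp1: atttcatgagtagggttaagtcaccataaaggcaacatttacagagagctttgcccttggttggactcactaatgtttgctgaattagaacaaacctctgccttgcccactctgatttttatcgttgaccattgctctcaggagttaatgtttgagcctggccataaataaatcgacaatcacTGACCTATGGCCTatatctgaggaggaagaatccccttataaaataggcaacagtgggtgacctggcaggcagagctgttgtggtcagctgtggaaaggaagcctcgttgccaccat
Cd36: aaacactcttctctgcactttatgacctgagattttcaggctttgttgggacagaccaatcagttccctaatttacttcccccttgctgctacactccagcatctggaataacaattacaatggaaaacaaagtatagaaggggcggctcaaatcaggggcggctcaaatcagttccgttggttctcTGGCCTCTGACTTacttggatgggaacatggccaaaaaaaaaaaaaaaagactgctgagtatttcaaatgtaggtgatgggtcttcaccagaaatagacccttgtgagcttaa
Apoc2: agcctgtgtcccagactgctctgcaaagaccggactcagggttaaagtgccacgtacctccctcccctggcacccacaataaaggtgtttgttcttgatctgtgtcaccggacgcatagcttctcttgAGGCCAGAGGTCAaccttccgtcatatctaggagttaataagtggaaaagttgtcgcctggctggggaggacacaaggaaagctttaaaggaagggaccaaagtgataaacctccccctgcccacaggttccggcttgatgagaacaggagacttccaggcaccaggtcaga
The match begins 67 bases before the start in Fabp1, with 1 mismatch, 63 before it in Cd36, with 2, and 122 before it in Apoc2, with 1. Of all 32851 promoters 3.86% held such a match. The PPAR target list had 4 of 21 promoters with it (19.0%, from 17 of its 24 genes). The chylomicron list had 3 of 10 (30.0%, from 9 of its 11 genes), and Creb3l3 is counted in both. The list of fatty acid uptake and triglyceride synthesis had 2 of 15 (13.3%), and Fabp1 is counted in it and in the PPAR target list. Mitochondrial oxidation had 3 of 17 (17.6%) and peroxisomal oxidation 2 of 16 (12.5%), and Slc25a20 is counted in the mitochondrial and the PPAR target lists. Cholesterol synthesis had 0 of 20 and a list of interferon genes 1 of 21 (4.76%). A match of letters is not a bound site.

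PPAR targets had a median of 3.41, and 0.99 relative to the enterocyte markers. Of 24 genes, Cyp4a14, Cyp4a31 and Fgf21 fell below the count filter, and all 21 tested ones were called higher with no overlap of the diets (15.1% of all genes were higher without overlap). These genes were listed as textbook targets of PPAR alpha, and no value here measures that receptor's activity. This list, like the others that are not of a cell type, was chosen with earlier results of these data known. Its share of calls is therefore no independent test. Cyp4a10 (chr4:115518264-115533649, mm10) was at 1.71, 0.425 and 0.229 CPM under ND and at 153, 72.0 and 102 CPM under HFD. Its log2 fold change was 7.14 ± 0.81 (adjusted p = 0.00162). Pdk4 (chr6:5483351-5496309), the kinase that shuts glucose carbon out of the mitochondrial cycle, was at 36.4, 12.2 and 4.70 CPM under ND and 421, 274 and 369 CPM under HFD (4.33 ± 0.60, adjusted p = 0.00201). In both genes every HFD library exceeded every ND library, and HFD replicate 1, the lowest HFD library for enterocyte genes, was the highest.

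Acot1, a cytosolic acyl-CoA thioesterase, was at 3.81, 2.62 and 1.66 CPM under ND and 71.8, 29.7 and 59.9 CPM under HFD (4.32 ± 0.54, adjusted p = 0.00162). Me1, the malic enzyme that supplies NADPH, was at 13.7, 8.70 and 3.72 CPM under ND and 234, 145 and 154 CPM under HFD (4.36 ± 0.52, adjusted p = 0.00162). Angptl4, an inhibitor of lipoprotein lipase, rose by 2.99 ± 0.64 (adjusted p = 0.0101), and Ppara itself by 1.87 ± 0.53 (adjusted p = 0.034), the latter called in 1 of the 6 fits that left out a non-EEC library. Of the 21 tested members 10 were called in every fit that left out 1 non-EEC library, with counts of 10 and 12 without ND replicates 2 and 3, 11 without HFD replicate 2 or 3, 15 without HFD replicate 1 and 20 without ND replicate 1. Cyp4a10, Acot1, Acot2 and Acaa1b have near-identical paralogs, so their counts are uncertain.

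**Figure D3:**
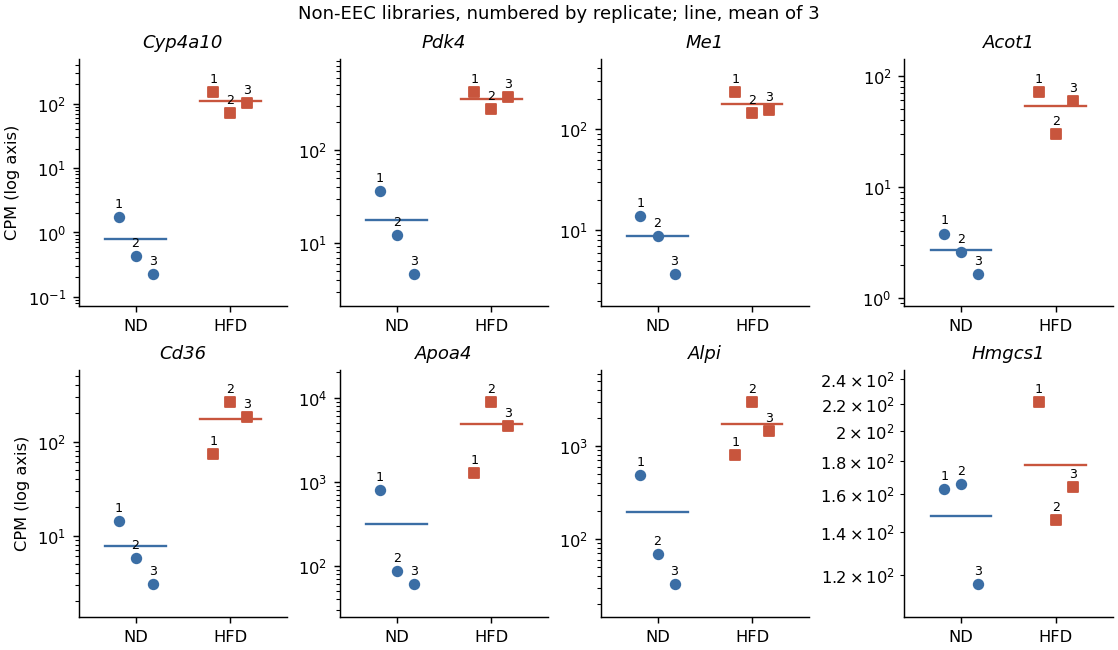
CPM on a log axis in each non-EEC library for 8 genes, numbered by replicate, with a line at the mean of the 3 libraries of a diet. HFD libraries lie above every ND library for Cyp4a10, Pdk4, Me1, Acot1, Cd36, Apoa4 and Alpi, ND replicate 1 is the highest ND library for each of these, and the diets overlap for Hmgcs1.

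Fatty acid oxidation rose in breadth but by less than the enterocyte median. Of 20 mitochondrial genes 16 rose and all 20 were higher without overlap, with a median of 1.53 that became -1.11 relative to the enterocyte markers. Of 16 peroxisomal genes 12 rose and all 16 were higher without overlap, with a median of 1.97 that became -0.68. Among all genes 5.76% rose and 15.1% were higher without overlap, and the median relative to the enterocyte markers was -2.96. Acaa2, a mitochondrial thiolase, was at 142, 61.4 and 52.1 CPM under ND and 356, 304 and 385 CPM under HFD (2.03 ± 0.42, adjusted p = 0.00818). Etfa, which passes electrons from acyl-CoA dehydrogenases, was at 144, 142 and 122 CPM under ND and 495, 352 and 449 CPM under HFD (1.67 ± 0.34, adjusted p = 0.00843). ND libraries were close together for Etfa, unlike the enterocyte markers. Abcd3, a peroxisomal fatty acid importer, rose by 2.57 ± 0.46 (adjusted p = 0.0043). Cpt1a, which commits fatty acids to mitochondria, rose by 1.39 ± 0.42 (adjusted p = 0.0414) and was called in 1 of the 6 fits that left out a non-EEC library. Without ND replicate 2 the mitochondrial count was 2 and the peroxisomal count 8, and without ND replicates 2 and 3 together neither list had a call, with medians of 0.95 and 1.46.

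Synthesis of fatty acids and sterols did not share this rise. Of 16 genes of fatty acid synthesis and desaturation 2 rose and 3 fell, with a median of 0.41 that became -2.25 relative to the enterocyte markers. Me1 and Acacb, the mitochondrial acetyl-CoA carboxylase, were the higher ones. The lower ones were Scd2, a desaturase, Acly, ATP citrate lyase, and Elovl5, an elongase. Scd2 was at 120, 169 and 82.9 CPM under ND and 37.8, 29.3 and 21.97 CPM under HFD, with no overlap (-2.06 ± 0.40, adjusted p = 0.00647). Scd1 went the other way without passing, at 4.75, 5.73 and 8.42 CPM under ND and 23.7, 29.7 and 41.2 CPM under HFD (2.32 ± 0.80, adjusted p = 0.0667). Me1 and Scd2 were the members called in every fit that left out 1 library. Of 25 cholesterol synthesis genes, Stard4, a sterol carrier, rose (1.48 ± 0.33, adjusted p = 0.0111), 24 were not called and the list median was -0.15. Hmgcs1, the cytosolic synthase, was at 163, 166 and 116 CPM under ND and 221, 146 and 164 CPM under HFD, with overlap (0.26 ± 0.33, adjusted p = 0.646). Relative to the enterocyte markers, 19 of the 25 were called lower, with a median of -2.74, close to the -2.96 of all genes.

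Other absorptive functions had called members as well. Among retinoid genes 5 of 10 tested rose, with a median of 2.15 that became -0.09 relative to the enterocyte markers. Aldh1a1, a retinal dehydrogenase, was at 158, 39.8 and 53.5 CPM under ND and 949, 870 and 1350 CPM under HFD (3.65 ± 0.56, adjusted p = 0.003). HFD libraries exceeded every ND library, and Retsat, retinol saturase, rose by 3.38 ± 0.56 (adjusted p = 0.00326). Of 22 xenobiotic genes (median 2.04, and -0.10 relative to the enterocyte markers) 10 rose and Ephx1, microsomal epoxide hydrolase, fell (-2.10 ± 0.47, adjusted p = 0.012). Among bile acid genes 3 of 7 tested rose, the receptor Nr1h4, its target Nr0b2 and the importer Slc10a2, which reached at most 4.31 CPM; relative to the enterocyte markers the list median turned from 1.93 to -0.33. Nr0b2 was at 0.389, 0.425 and 0.0573 CPM under ND and 2.47, 16.4 and 25.3 CPM under HFD (5.65 ± 1.41, adjusted p = 0.0197), and was called in 2 of 6 fits that left out 1 library. In sugar metabolism Pck1, a gluconeogenic enzyme, rose by 3.70 ± 0.76 (adjusted p = 0.00826), and Hk1, a hexokinase, fell from 45.0, 47.8 and 77.2 CPM under ND to 8.56, 8.50 and 10.1 CPM under HFD (-2.64 ± 0.41, adjusted p = 0.00307). Of 25 nuclear genes of oxidative phosphorylation 3 rose, with a median of 0.96 (-1.75 relative to the enterocyte markers). Of 24 ribosomal protein genes none was called, with a median of -0.46.

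Relative to the general enterocyte shift, 5 genes were higher under HFD. They were Cyp4a10 (5.29, adjusted p = 0.00044), Nr0b2 (2.86, adjusted p = 0.0386), Pdk4 (2.33, adjusted p = 0.0447), Sprr1a, a cornified envelope protein (2.65, adjusted p = 0.0464), and Alpk3, a kinase-like protein without a count in ND replicates 2 and 3 (2.84, adjusted p = 0.0498). Alpk3 was not called on the usual scale (adjusted p = 0.0705). The log2 level of Cyp4a10 minus the enterocyte score of the same library was -6.91, -6.40 and -6.45 under ND and -0.71, -3.29 and -2.20 under HFD. For Pdk4 it was -2.61, -1.95 and -2.74 under ND and 0.75, -1.36 and -0.35 under HFD, and for Cd36 -3.95, -3.00 and -3.35 under ND and -1.75, -1.43 and -1.36 under HFD. The diets did not overlap in these 3 genes, and Cd36 did not pass on that scale (1.92, adjusted p = 0.0996). Acot1 overlapped, at -5.81, -4.11 and -4.17 under ND and -1.80, -4.57 and -2.97 under HFD (1.89, adjusted p = 0.119 on that scale). The calls on this scale were not repeated with single libraries left out.

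**Figure D4:**
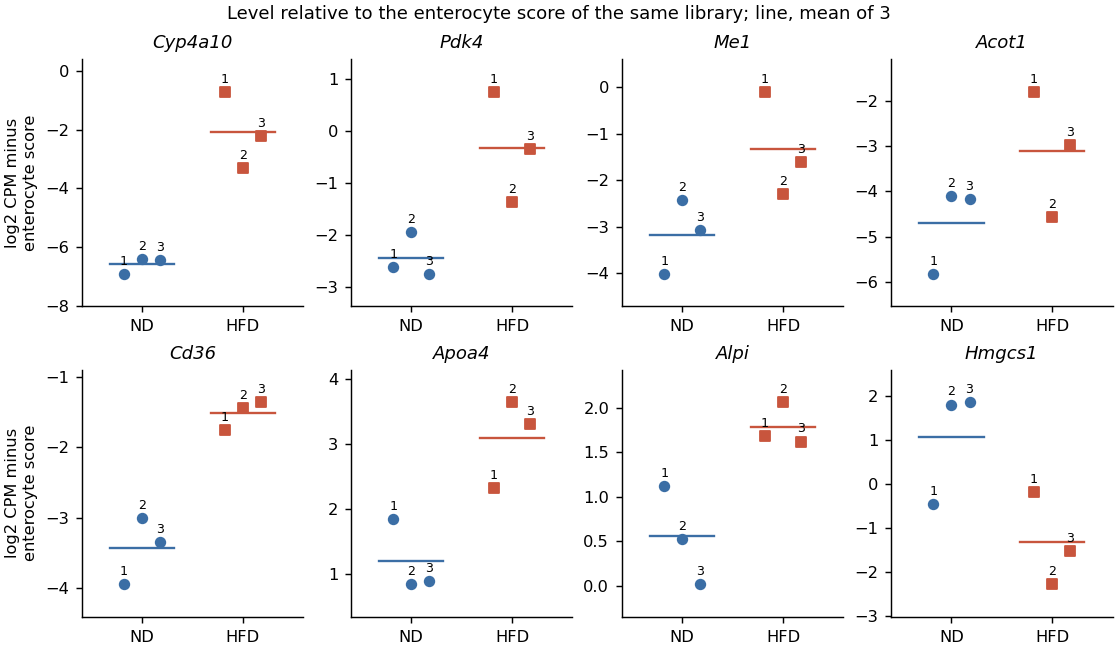
Log2 CPM minus the enterocyte score of the same library (y axis) for the same 8 genes, numbered by replicate, with a line at the mean of the 3 libraries of a diet. Cyp4a10, Pdk4, Me1, Cd36, Apoa4 and Alpi keep the diets apart, Acot1 overlaps through HFD replicate 2, and Hmgcs1 lies lower in HFD replicates 2 and 3 than in any ND library.

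The replicate 1 libraries, nearly equal in enterocyte score, put the members side by side at like enterocyte levels, with 1 library per diet and no test. They were not alike in other cells. Goblet genes summed to 37450 CPM in ND replicate 1 and 13520 CPM in HFD replicate 1, and T cell identity genes to 6132 and 501 CPM. Paneth genes went the other way, at 1201 and 5651 CPM. The part of these other cells in the ratios was not tested. Between them Cyp4a10 was 89.6-fold higher under HFD, Acot1 18.8-fold, Me1 17.1-fold, Pdk4 11.6-fold, Rab30, a Golgi GTPase, 10.6-fold and Acsl3 8.19-fold. Fabp1 was 5.02-fold higher and Cd36 5.22-fold, while Apoa4 was 1.58-fold higher, Alpi 1.67-fold, Sis 1.33-fold and Lct, lactase, 1.25-fold. Over the 21 tested PPAR targets the ratio ranged from 1.59 (Ehhadh, a peroxisomal enzyme) to 89.6 with a median of 3.41, and over the 49 general enterocyte markers from 0.518 to 2.95 with a median of 1.15. Without ND replicates 2 and 3, the genes called higher included Cyp4a10 (5.97, adjusted p = 0.0305), Me1 (3.68), Acsl3 (3.48), Pdk4 (3.27, adjusted p = 0.0272), Rab30 and Akr1c19, an aldo-keto reductase with close paralogs. Of the PPAR target list 4 of 21 were called, and of the general enterocyte markers 0 of 49.

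Lymphocyte genes fell together. All 20 T cell identity genes were lower under HFD without overlap (20.2% of all genes were lower without overlap) and called, with a median of -4.89. All 6 tested T cell receptor constant genes, all 8 Gimap genes, GTPases of lymphocytes, and 13 of 16 cytotoxic effectors were lower too, with medians of -5.00, -4.39 and -4.88. Relative to the enterocyte markers the medians of these lists lay lower still, at -7.85 for T cell identity. Cd3e, a chain of the T cell receptor complex, was at 1606, 2244 and 2471 CPM under ND and 95.3, 11.8 and 91.0 CPM under HFD (-5.00 ± 0.94, adjusted p = 0.00556). Cd8a, the co-receptor of cytotoxic T cells, was at 973, 1592 and 2484 CPM under ND and 59.1, 10.3 and 99.5 CPM under HFD (-4.90 ± 0.97, adjusted p = 0.00677). ND replicate 1, the ND library with the highest enterocyte score, was the lowest ND library for both and still above every HFD library.

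Gzmb, granzyme B, was at 2342, 2692 and 5829 CPM under ND and 57.9, 14.3 and 127 CPM under HFD (-5.77 ± 1.16, adjusted p = 0.00748). Gzma, granzyme A, was among the most abundant transcripts under ND at 5811, 8000 and 16880 CPM, and was at 263, 34.5 and 442 CPM under HFD (-5.37 ± 1.04, adjusted p = 0.00621). HFD replicate 2 was the lowest library for each of these genes and had the highest enterocyte score. Batf, a transcription factor of T cells, had 760 counts over the ND libraries and 2 over the HFD libraries, a ratio of 371 (95% interval 102 to 3070, counting error only). Cd2 had 485 and 2, a ratio of 237 (65.1 to 1960). Of the 6 fits that left out a non-EEC library, Batf was called in 2, Cd4 in 4 and Cd2 in all. Of the 20 T cell genes 15 were called in every fit that left out 1 library, as were 6 of 6 receptor genes, 8 of 8 Gimap genes and 10 of 16 cytotoxic genes. Between the replicate 1 libraries Cd3e under HFD was 0.0593 and Gzmb 0.0247 of the ND level. Without ND replicates 2 and 3 the T cell median was -3.85, with Thy1 the only T cell identity gene called. Summed over the list, T cell identity genes made up 6132 to 15260 CPM under ND and 114 to 610 CPM under HFD, and none was at 0 in all HFD libraries. Red blood cell genes, of which none was called, had lower values in the same libraries: all 4 were lower under HFD without overlap (median -2.92), with sums of 34.6, 116 and 193 CPM under ND and 17.5, 2.41 and 23.8 CPM under HFD. The 4 tested of 11 stromal and endothelial genes were all negative with a median of -1.77, and none was called. The part of these other cells in the lymphocyte decrease was not tested.

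Other immune lists were mostly lower as well, with fewer calls. Values were negative for 10 of 10 B and plasma cell genes and 10 of 12 myeloid genes. They were also negative for 7 of 7 MHC class II genes and 22 of 23 interferon and immunoproteasome genes. The medians of the myeloid and MHC class II lists were -1.93 and -1.34. Of 10 B and plasma cell genes Ighm and Cd79b fell, Ighm in 1 and Cd79b in 6 of the 6 fits that left out a non-EEC library, and the list median was -3.34. Among 12 myeloid genes Itgax, Fcer1g and Cd68 fell, Cd68 in 1 of those 6 fits and the others in all of them, while Csf1r, the receptor of macrophage growth factor, was at 2.57, 4.88 and 5.04 CPM under ND and at 0.362, 1.65 and 0.342 CPM under HFD and was not called (adjusted p = 0.125). Of 7 MHC class II genes H2-DMa was called lower (-1.70 ± 0.53, adjusted p = 0.048), and in none of the fits that left out 1 library. Of 23 interferon and immunoproteasome genes 7 fell and none rose, with a median of -1.21 beside -0.10 for all genes. Gbp7, a guanylate binding protein, was at 37.3, 114 and 155 CPM under ND and 6.99, 6.596 and 7.86 CPM under HFD, with no overlap (-3.83 ± 0.57, adjusted p = 0.00252). In 11 of 21 promoters of that list (52.4%, from 19 of its 23 genes) GAAA on both sides of 2 bases, the core of the interferon response element, was found on either strand without mismatch, against 3.44% of all promoters. T cell genes fell in the same libraries, and their part in the interferon list was not tested.

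Markers of the other epithelial cells were not called as lists. None of 12 goblet, 7 Paneth or 20 enteroendocrine genes passed, with medians of -0.40, 2.55 and -1.28. All 7 Paneth values were positive, 4 of them without overlap (15.1% of all genes were higher without overlap). The Paneth median was 0.45 relative to the enterocyte markers. Paneth sums were 1201, 249.6 and 139.2 CPM under ND and 5651, 1285 and 3337 CPM under HFD, without overlap. Muc2, the goblet cell mucin, was at 5605, 339 and 67.8 CPM under ND and 2016, 906 and 1161 CPM under HFD, a spread within ND wider than the gap between diets. Enteroendocrine transcripts were highest in ND replicate 1, where the list summed to 11140 CPM, against 731 and 269 CPM in ND replicates 2 and 3 and 873 to 1697 CPM under HFD. The EEC libraries held 24410 to 160100 CPM. Without ND replicates 2 and 3, 6 of the 20 were called lower, Gip, the incretin of K cells, among them at 1924 CPM in ND replicate 1. Of 12 tuft cell genes Plcg2 (-2.41 ± 0.42, adjusted p = 0.00396) and Plcb2, phospholipases that immune cells also express, fell. The tuft list had 12 negative values and a median of -1.36, and its sums of 588, 279 and 257 CPM under ND and 149, 123 and 94.5 CPM under HFD did not overlap. The defining tuft genes Pou2f3 and Trpm5 were not called. Among antimicrobial genes Reg3a rose by 3.06 ± 0.79 (adjusted p = 0.0219), and was called in 3 of 6 fits that left out 1 library. Reg3g was at 820, 96.7 and 189 CPM under ND and 93.2, 912 and 356 CPM under HFD, with full overlap.

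The EEC libraries on the same diets had 0 of 17087 genes called (0.0%) by edgeR. At an unadjusted p below 0.05 there were 1613 genes in EEC, 717 higher and 896 lower, and DESeq2 called 465 and limma-voom 8. The enterocyte marker median there was -0.09 against 2.25 in non-EEC, and the PPAR target median 0.65 against 3.41. Cyp4a10 changed by 3.68 in EEC (adjusted p = 0.0691) and by 7.14 in non-EEC. The difference between populations was not called for it (3.46 ± 0.95, adjusted p = 0.11). T cell identity genes had a median of -4.24 in EEC, where their sum was 312 to 2005 CPM under ND and 28.9 to 131 CPM under HFD.

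The test of the difference itself called 8 genes with a more positive (0.0468%) and 77 with a more negative diet change (0.451%) in non-EEC than in EEC. The sorts were unequal in lymphocyte transcripts under ND. T cell identity genes summed to 6132 to 15260 CPM in ND non-EEC and 312 to 2005 CPM in ND EEC. The part of this inequality in the calls was not tested. The 8 included Akr1c19 (4.12 ± 0.68, adjusted p = 0.0275), Akr1c13 (3.04 ± 0.53, adjusted p = 0.0316) and Sult1d1, a sulfotransferase (3.08 ± 0.54, adjusted p = 0.0316). Among the 77 were Glp1r, the GLP-1 receptor, at 93.6, 114 and 149 CPM in ND non-EEC and 15.6, 2.54 and 3.64 CPM in HFD non-EEC, with a difference of -5.37 ± 0.84 (adjusted p = 0.0247). Esyt1, a lipid transfer protein of membrane contacts, had a difference of -3.25 ± 0.44 (adjusted p = 0.02). These 2 were chosen for mention after their values were seen. Both populations come from 3 mice per diet. With the 3 libraries of a group taken as separate mice, EEC and non-EEC libraries of a diet share mice. The labels do not say which libraries share a mouse. With EEC and non-EEC libraries of the same diet and number as a replicate block, chosen after seeing the data, the counts were 20 and 64, of which 4 and 45 were among the 8 and 77. Under that block Glp1r (-5.75, adjusted p = 0.027), Esyt1 (-3.23, adjusted p = 0.0355) and Akr1c13 (3.03, adjusted p = 0.0411) were called, and Akr1c19 (adjusted p = 0.0528), Sult1d1 (adjusted p = 0.0583) and Gimap1 (adjusted p = 0.0656) were not. Of all gene lists, Gimap1 and Sult1d1 were the members called in the test without the block. Leaving out ND non-EEC replicate 1 moved the counts to 807 and 464. Both counts were 0 when replicate 2 of ND non-EEC, 3 of HFD non-EEC, 2 of ND EEC or either 1 or 3 of HFD EEC was left out. They were 19 and 80 when replicate 2 of HFD EEC was left out, and 0 to 3 and 1 to 39 for each of the other libraries (ND non-EEC 3, HFD non-EEC 1 and 2, ND EEC 1 and 3).

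**Figure D5:**
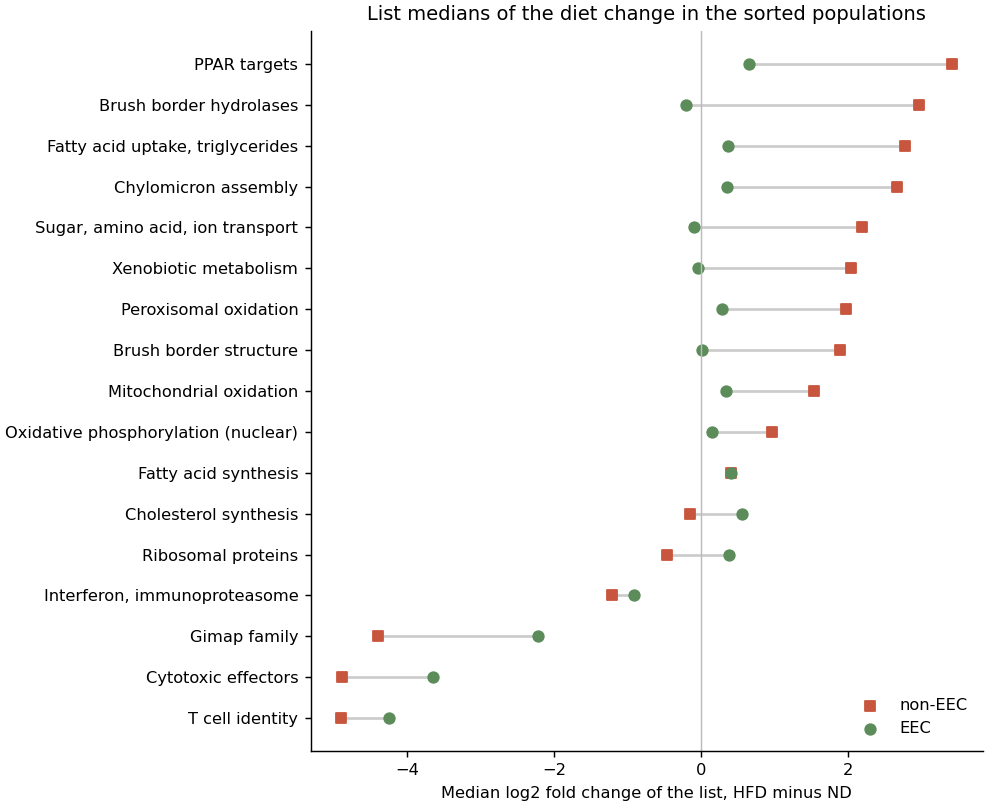
Median log2 fold change (x axis, HFD minus ND) of 17 gene lists (y axis) in non-EEC (squares) and EEC (circles), on the usual scale. PPAR targets have medians of 3.41 and 0.65, brush border hydrolases 2.96 and -0.21, and T cell identity genes -4.89 and -4.24; relative to the enterocyte markers the non-EEC medians of transport, brush border structure, xenobiotic, both oxidation, oxidative phosphorylation and fatty acid synthesis lists are below 0.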

How the data were processed

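RNA was measured by sequencing in sorted jejunal villus cells, 12 libraries in 4 groups of 3. The deposited values are raw counts of reads per Ensembl gene made by the authors, and the tools listed in the submitters' processing notes are HTSeq 0.5.4p3, Bowtie2 2.1.0, TopHat2 2.0.10 and CASAVA 1.8.2, with the mm10 build. RNA was amplified with the Ovation RNA-Seq System V2, per the labels' protocols. Which annotation release, strand setting and counting mode were used is not given in the sources used here, and counts of overlapping genes and near-identical copies are uncertain. Symbols were matched for 37607 of 39086 genes (96.2%) through GENCODE vM21. Libraries held 9543183 to 29054281 counts.

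Counts were filtered with edgeR 4.0.16 (filterByExpr by group, 17087 genes), scaled with TMM factors and fitted with the quasi-likelihood model over all 12 libraries as 4 group means, which left 8 residual degrees of freedom. Called means a Benjamini-Hochberg adjusted p below 0.05 over all tested genes. SE is the log2 fold change divided by the square root of F. CPM use TMM-scaled library sizes, and scores use log2 CPM with a prior count of 2. On simulated counts for this comparison (17087 genes), calls were made for 0 of 67 genes with a 2-fold change, 42 of 67 with a 4-fold change, 66 of 66 with a 16-fold change and 5 of 16887 without one. Each gene was simulated independently, and changed genes were drawn from those with 10 CPM or more under ND. Shifts shared by many genes were not simulated, so these rates need not hold for the real libraries.

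Named genes are the 10 highest and 10 lowest called genes whose libraries did not overlap and whose higher group had a mean of 10 CPM or more, up to 4 called members of each list by adjusted p, and a set given in every library. List members given for illustration beyond these were chosen after their values were seen. Some named genes are not reported here. Members and lists were chosen with earlier results of these data known. Alternatives were DESeq2 1.42.0, limma 3.58.1 (voom), other scalings and filters, score covariates, a replicate block, single libraries left out and, added after seeing the data, ND non-EEC replicates 2 and 3 left out. With 3 mice per diet and the libraries of a group taken as separate mice, EEC and non-EEC libraries share mice, but the labels do not tie libraries to mice. The test between populations treats them as independent, and a block of same-numbered libraries within each diet was added after seeing the data. No libraries of a group were duplicates by a chi-square test of their counts.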

Additional observations from a re-analysis of the deposited data

Results flagged for a closer look

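Gimap1 (chr6:48739054-48743795, mm10), a GTPase of lymphocytes, had a diet change that differed between the sorted populations by the test of the difference. It was at 89.8, 178 and 312 CPM in ND non-EEC and 19.0, 14.6 and 21.1 CPM in HFD non-EEC, with a log2 fold change of -3.41 ± 0.47 there and -0.19 in EEC. The difference was -3.216 (adjusted p = 0.0424, edgeR's quasi-likelihood test), and -3.10 (adjusted p = 0.0656) with EEC and non-EEC libraries of the same diet and number as a replicate block. The other 7 Gimap genes were not called in that test, and Gimap genes are related in sequence.

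Sult1d1 (chr5:87554645-87569027), a sulfotransferase, differed in the other direction. It was at 63.9, 43.2 and 40.7 CPM in ND non-EEC and 170, 199 and 227 CPM in HFD non-EEC, with a log2 fold change of 2.01 ± 0.39 there and -1.06 in EEC. The difference was 3.076 (adjusted p = 0.0316), and 2.94 (adjusted p = 0.0583) with that block. Relative to the enterocyte markers its change in non-EEC was -0.77 (adjusted p = 0.488).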

How the results depend on the processing

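Scaling (RLE, upper quartile), robust estimation, filters on low counts and a fit of the 6 non-EEC libraries alone kept the counts of 985 genes higher and 1564 lower within 1.5 times. DESeq2 gave 1900 higher, and limma-voom (quality weights) called 3290 higher and 3639 lower. With the T cell score or the enterocyte score as a covariate, in neither of which the diets overlap, 0 genes were called in either direction. Relative to the enterocyte markers 5 were higher and 10089 lower, and without ND non-EEC replicates 2 and 3 there were 7 and 104. With the replicate number as a replicate block the counts were 1071 and 1586, and for the difference between populations 8 and 53. Deviations of same-numbered ND and HFD non-EEC libraries from their group means correlated at -0.093, -0.114 and 0.234. Deviations within a group of 3 libraries depend on each other, so these values cannot decide whether the numbers pair the libraries. Between EEC and non-EEC libraries of the same number the correlations were 0.142, 0.227 and -0.013 under ND and 0.247, 0.239 and 0.234 under HFD. Leaving out single libraries gave 198 to 1968 higher and 752 to 2235 lower.

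For the difference between populations (8 positive, 77 negative), RLE factors gave 14 positive, a filter of 5 CPM 17, no filter 107 and 255, DESeq2 465 and 596, limma-voom 1220 and 963, the T cell score as covariate 0 and 15, the enterocyte score as covariate 0 and 0, and the fit without ND non-EEC replicates 2 and 3 0 and 13. The replicate block within each diet gave 20 positive and 64 negative. Leaving out single libraries gave 0 to 807 positive and 0 to 464 negative.

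The enterocyte marker median of 2.25 became 0.41 with the T cell score, 0.014 with the enterocyte score as covariate and -0.034 relative to the markers themselves, which holds by construction, and ranged over 1.79 to 3.58 with single libraries left out. That of PPAR targets (3.41) became 4.10 by limma-voom, 2.27 with the T cell score, 1.46 with the enterocyte score, 0.99 relative to the enterocyte markers and, over the 22 members tested in that fit, 2.16 without ND non-EEC replicates 2 and 3 (2.12 over the 21 members above), and ranged over 2.98 to 4.15. That of T cell identity (-4.89) became 0.23 with its own score as covariate, -3.26 with the enterocyte score and -7.85 relative to the enterocyte markers, and ranged over -5.29 to -4.36.

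Signs of single genes turned as follows, on the log2 scale. Relative to the enterocyte markers, a scale on which the median of all genes is -2.96, they were Abcg2 -0.22, Abhd5 -1.69, Acaa1a -1.21, Acaa2 -0.41, Acadl -1.31, Acadm -1.11, Anks4b -0.51, Aurka -1.24, Clock -1.27, Cpt1a -0.96, Dnajb9 -1.59, Dpp4 -0.63, Eps8 -0.23, Etfa -1.12, Fbp1 -0.72, Fosb -0.91, Gclm -1.21, Gpx4 -1.30, Hmgcs1 -2.44, Hsd17b4 -0.34, Ier3 -0.60, Klf4 -0.25, Krt20 -0.088, Lrat -0.089, Ndufb5 -1.83, Ndufs1 -1.79, Neurog3 -2.12, Nr1h3 -0.31, Nr1h4 -0.33, Plin2 -0.38, Plin3 -0.65, Prdx1 -1.36, Reg3g -2.26, Sar1b -0.58, Scd1 -0.84, Scp2 -0.72, Slc16a10 -0.23, Sod1 -1.43, Stard4 -1.25, Sult1d1 -0.77, Uqcrfs1 -1.44, Ush1c -1.01, Vil1 -0.48, mt-Co2 -1.11, mt-Nd5 -0.99. With the T cell score as covariate they were Batf 0.41, Cdh5 3.10, Defa30 -0.17, Fcer1g 0.22, Hbb-bs 4.00, Hbb-bt 2.80, Heph -0.14, Ighm 3.18, Itln1 -0.63, Plcb2 0.89, Reg3g -3.17, Rpl27 0.041, Tcrg-C1 0.37, Tcrg-C2 0.08. With the enterocyte score as covariate they were Lct -0.011, Reg3g -4.51, Vil1 -0.059. Chga became 0.74 by limma-voom, and Reg3g became -0.53 with the replicate block and -0.88 without ND non-EEC replicates 2 and 3. With single libraries left out, Chga ranged over -1.42 to 1.22, Neurod1 over -2.03 to 0.15, Hmgcs1 over -0.001 to 0.38 and Reg3g over -0.72 to 1.57. The cause of these changes was not tested.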

Other observations

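Genes of cell stress and of the clock, which are in none of the comparisons above, had some calls. Of all tested genes 5.76% were called higher under HFD. Of 21 immediate early and heat shock genes Atf3, Fosb and Ier3 rose under HFD in non-EEC, with a list median of 0.47 in non-EEC and 1.43 in EEC. Fosb, whose diets overlapped, was called in 1 of the 6 fits that left out a non-EEC library and Ier3 in 2. Atf3, a stress-induced transcription factor, was at 48.2, 15.1 and 13.6 CPM under ND and 234, 104 and 318 CPM under HFD, with no overlap (3.09 ± 0.66, adjusted p = 0.00981), and its change in EEC was 3.18 (adjusted p = 0.076). Of 15 genes of the unfolded protein response Trib3 and Dnajb9 rose, called in 2 and 1 of those 6 fits. Among 14 clock genes Clock (1.35 ± 0.35, adjusted p = 0.0241) and Nr1d1, its repressor arm (2.49 ± 0.69, adjusted p = 0.0296), rose, and each was called in 2 of 6 fits that left out 1 library. The hour of tissue collection is not given in the sources used here.

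Transcripts of the mitochondrial genome were at 54180, 32620 and 16090 CPM in ND replicates 1 to 3 and 65070, 143400 and 118600 CPM in HFD replicates 1 to 3, with no overlap. Of 12 tested genes mt-Co2 and mt-Nd5 were called higher, each in 1 of the 6 fits that left out a non-EEC library, with a list median of 1.67 that became -0.99 relative to the enterocyte markers.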
